A study of Mus musculus with 18 samples.

Results

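Microglia sorted from the medial prefrontal cortex (mPFC) of THC-treated mice were compared with microglia of vehicle-treated mice, with both genotypes of the study in one model. All 18 libraries entered the comparison: 8 from THC-treated mice and 10 from vehicle-treated mice. THC libraries came from 16p11dup mice (16p11dup-THC, n = 4) and wild-type littermates (WT-THC, n = 4), and vehicle libraries from 16p11dup mice (16p11dup-Veh, n = 4) and wild-type littermates (WT-Veh, n = 6). All mice were of the C57BL6/J strain background. The 16p11dup mice carry an engineered duplication of the chromosome segment that corresponds to human 16p11.2, in every cell of the body and not in microglia alone. In these libraries the 25 genes of that segment in the table did not sum to a higher level in 16p11dup than in wild-type libraries. The sum had a median of 1378 CPM (956 to 4603) in 16p11dup libraries and 1730.3 CPM (1114 to 2586) in wild-type libraries. Such a sum rests mostly on its most abundant members, and 3 of the 25 genes had no count in any library. It does not test the dose of single genes. The genotype is given as labelled, and the paper states that its engineered mice were genotyped. THC was given at 8 mg/kg as a daily subcutaneous injection between postnatal days 30 and 51, vehicle was a mixture of saline and Cremophor, and CD11b+/CD45+/P2ry12+ cells were sorted at day 51. A gene was tested if it had a count in at least 9 libraries, which held for 10055 of the 22428 genes in the table. Of the tested genes, 5520 had a count in all 18 libraries and 314 had one in exactly 9, while 255 genes with a count in exactly 8 libraries stayed outside. No source says that each library came from one mouse, and the labels do not give the sex of the mice, so p-values measure the spread between these libraries. The Y-linked genes Ddx3y, Eif2s3y, Kdm5d and Uty had a count in all 18 libraries. Xist reached at most 16.7 CPM, in 16p11dup-Veh replicate 16.

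THC, the main psychoactive compound of cannabis, is a partial agonist at the cannabinoid receptors encoded by Cnr1 and Cnr2. Both are G protein-coupled receptors that lower cAMP through inhibitory G proteins, and Cnr2 is known mainly from immune cells, microglia among them. Microglia are the resident macrophages of the brain parenchyma. They depend on the receptor Csf1r, sense nucleotides through P2ry12 and take up and digest cell debris in their lysosomes.

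Levels are given as CPM, the count of a gene scaled to the total count of its library with the factors of the authors. Library totals ranged between 7045444 and 15459286 counts, the highest in WT-Veh replicate 6, and 8778 to 12350 genes had a count per library. None of 9 library measures differed between treatments in exact permutation tests within genotype, with adjusted p = 0.926 for each. The percentage of mapped reads had a median of 75.5 in THC libraries and 77.1 in vehicle libraries, and exonic reads made up a median of 34.5% in THC libraries and 34.0% in vehicle libraries. The microglial markers P2ry12, Tmem119, Csf1r, Itgam, Siglech and Sall1 had counts in all libraries, and P2ry12 averaged 3659 ± 1097 CPM in THC libraries and 3732 ± 860 CPM in vehicle libraries (SD). The 35 homeostatic microglia genes summed to a median of 69209 CPM in THC libraries and 68972 CPM in vehicle libraries. Markers of T, B and NK cells summed to at most 47.4 CPM in THC libraries and 41.3 CPM in vehicle libraries, and 10 of the 13 had no count in any library. Neuron markers summed to at most 66.2 CPM in THC libraries and 104 CPM in vehicle libraries, and endothelial and mural markers to at most 189.6 CPM in THC libraries and 159 CPM in vehicle libraries. Markers of monocytes and neutrophils were higher, at 676 to 932 CPM in THC libraries and 559 to 1892 CPM in vehicle libraries, with the most in 16p11dup-Veh replicate 14 and no count of Ly6c2, Plac8 and S100a4 in any library. Border macrophage markers summed to 319 to 952 CPM in THC libraries and 427 to 996 CPM in vehicle libraries, and astrocyte markers to 45.3 to 301 CPM in THC libraries and 108 to 319.9 CPM in vehicle libraries. The part of these cells in the results was not tested. In bulk samples, fewer cells of a type and less RNA per cell cannot be told apart.

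A single gene passed the threshold for the THC main effect, and its direction depended on how libraries were weighted. At a false discovery rate (FDR, the Benjamini-Hochberg adjusted p over the genes tested) under 0.10, limma called 1 of 10055 genes (0.00995%), which was Malat1, with a negative coefficient. At an unadjusted p under 0.05, 405 genes (4.03%) were counted, 172 with a positive (1.71%) and 233 with a negative coefficient (2.32%). Without the precision weights that limma gives to each value, no gene passed FDR 0.10 and 422 genes (4.20%) had an unadjusted p under 0.05, 193 with a positive (1.92%) and 229 with a negative coefficient (2.28%). Of the 405 genes, 347 were below 0.05 with the same sign in that unweighted fit. Quasi-likelihood tests in edgeR on recovered counts called no gene at FDR 0.10, while DESeq2 called 81, of which 24 had a positive and 57 a negative coefficient. Coefficients are log2 fold changes of THC over vehicle, adjusted for genotype and the percentage of mapped reads.

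The error of the coefficient was larger for less abundant genes. Among genes with a count in all 18 libraries, the median standard error of the coefficient was 0.12 for the 22 genes whose mean log2 CPM was over 11 and 0.66 for the 2149 genes between 5 and 7. It was 1.35 for the 335 genes below 3. The 172 genes with a positive coefficient had a median absolute coefficient of 2.37 and the 233 with a negative one 2.87, against 0.62 over all genes tested. Of the 172, 101 had a count in all libraries (58.7%), as did 114 of the 233 (48.9%), against 54.9% of all genes tested.

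Malat1, a long noncoding RNA retained in the nucleus and among the most abundant transcripts of these libraries, lies on chromosome 19 (GRCm38, 5795690 to 5802672, minus strand). Its level was 19333, 27685 and 34262 CPM at the lowest, the median and the highest of the 8 THC libraries, against 19395, 26748 and 29835 CPM in the 10 vehicle libraries. The groups overlapped over nearly their whole ranges, and the THC mean was the higher one, at 27637 ± 5554 CPM in THC libraries against 25316 ± 3823 CPM in vehicle libraries (SD). The weighted coefficient was nevertheless -0.31 (SE 0.04, FDR = 1.22e-05, limma). WT-Veh replicate 6, the deepest library, held 99.9% of the weight that the 18 libraries had for Malat1. With equal weights the coefficient was 0.11 (p = 0.188, limma), and the exact permutation test within genotype gave p = 0.327. The weighted coefficient stayed negative with each library left out in turn, but it was -0.20 (FDR = 0.998, limma) without WT-Veh replicate 6, where no gene passed FDR 0.10, and -0.18 (FDR = 0.686) without WT-THC replicate 11. It was 0.035 without WT-Veh replicate 6 and 16p11dup-Veh replicate 13, a setting chosen after seeing the data.

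**Figure D1:**
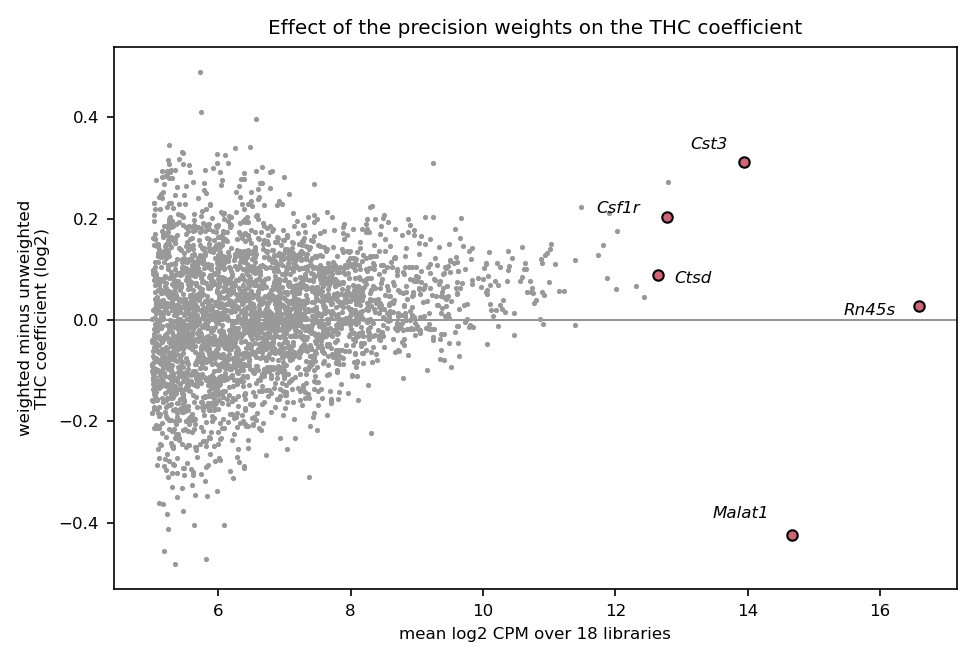
Weighted minus unweighted THC coefficient (log2, vertical axis) against mean log2 CPM over 18 libraries (horizontal axis) for the 3302 genes that had a count in every library and whose mean log2 CPM was 5 or more. Malat1 and Cst3, for which WT-Veh replicate 6 held 99.9% and 50.95% of the weight, lie farthest from 0 among the 5 genes marked, and Csf1r lies above 0.

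The same dependence on weights concerned abundant microglial genes. Cst3 encodes cystatin C, a secreted inhibitor of cysteine proteases. It had 11626, 14914 and 19211 CPM at the lowest, median and highest of the THC libraries, against 9939.7, 15954 and 26815 CPM in vehicle libraries. Its weighted coefficient was 0.21 (SE 0.06), and the unweighted one was -0.10 (SE 0.11), so that its direction depended on the weights. Csf1r, the receptor for colony-stimulating factor 1 and interleukin 34, had 5990.4, 7041 and 9825 CPM in THC libraries, against 5248, 6708 and 9726 CPM in vehicle libraries. Its coefficient was 0.23 (SE 0.07) with weights and 0.03 (SE 0.12) without. The ranges of the groups nearly coincided for Csf1r, and its exact permutation test gave p = 0.706.

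Among abundant genes with a positive coefficient, Ctsd had the smallest p. None of these passed FDR 0.10: the adjusted p was 0.734 for Ctsd and 9930111J21Rik1 and 0.999 for the others described here (limma). The genes described here belong to a set of the 12 of each direction with the smallest unadjusted p among the 3302 genes that had a count in every library and whose mean log2 CPM was 5 or more, and values are given for 11 of the 12 in each direction. Of those 3302 genes, 71 had a positive and 68 a negative coefficient with an unadjusted p under 0.05. Exact permutation p-values given here and below for genes chosen by p use the same libraries, so they are no independent support.

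Promoters of the genes were read for 5 short motifs, since cannabinoid receptors act through cAMP and since microglial and lysosomal genes have known regulators. RefSeq promoters (GRCm38.p6, 250 bases before to 50 after the start) were found for 7671 tested genes. The E-box CACGTG was present on either strand in 10.95% of them, in 15 of 137 promoters of genes with a positive coefficient at an unadjusted p under 0.05 (10.9%) and in 24 of 181 with a negative one (13.3%). The cAMP response element TGACGTCA was found in 3.52% of all promoters, 6 of 137 (4.38%) and 2 of 181 (1.10%). AP-1 sites (TGANTCA) were in 4.35% of all, 7 of 137 (5.11%) and 6 of 181 (3.31%). The PU.1 motif GAGGAAGT was in 3.34% of all, 6 of 137 (4.38%) and 6 of 181 (3.31%), and the ETS motif CCGGAAGT in 9.79% of all, 16 of 137 (11.7%) and 14 of 181 (7.73%). The shares were not tested against those of all promoters, and a match is a description of letters in this window only.

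The promoters of both genes whose treatments did not overlap and of Ctsd, the lysosomal gene with the smallest p, are given 5′ to 3′ with matches to these motifs in capitals. The 9930111J21Rik1 promoter (chr11:48979332-48979631, minus strand) holds 1 AP-1 match, the BC005624 promoter (chr2:30981892-30982191, minus strand) holds no match, and the Ctsd promoter (chr7:142387778-142388077, minus strand) holds E-box matches.
9930111J21Rik1: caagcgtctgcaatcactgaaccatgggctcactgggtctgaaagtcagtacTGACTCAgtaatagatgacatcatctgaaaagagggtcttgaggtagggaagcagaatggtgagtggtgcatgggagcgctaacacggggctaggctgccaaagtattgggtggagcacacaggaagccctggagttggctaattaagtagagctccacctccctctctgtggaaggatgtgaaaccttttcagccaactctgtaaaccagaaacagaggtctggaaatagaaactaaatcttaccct
BC005624: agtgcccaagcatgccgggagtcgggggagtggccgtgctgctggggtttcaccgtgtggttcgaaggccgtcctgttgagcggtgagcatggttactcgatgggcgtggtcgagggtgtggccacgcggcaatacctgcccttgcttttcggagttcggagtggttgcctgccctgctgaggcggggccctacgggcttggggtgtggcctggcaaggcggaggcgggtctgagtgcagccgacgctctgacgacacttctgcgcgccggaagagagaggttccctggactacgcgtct
Ctsd: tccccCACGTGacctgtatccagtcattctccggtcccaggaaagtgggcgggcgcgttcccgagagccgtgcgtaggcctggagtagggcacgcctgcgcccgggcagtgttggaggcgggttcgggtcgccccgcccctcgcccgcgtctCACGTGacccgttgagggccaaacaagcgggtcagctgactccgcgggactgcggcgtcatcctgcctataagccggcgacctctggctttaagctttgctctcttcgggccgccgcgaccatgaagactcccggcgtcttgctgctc

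Ctsd encodes cathepsin D, an aspartic protease of lysosomes. It had 5321, 6576 and 12152 CPM at the lowest, median and highest of the THC libraries, against 4773, 6054 and 7080.1 CPM in vehicle libraries. Of the 8 THC libraries, 6 were above the vehicle median, and 16p11dup-THC replicate 20 was the highest while the ranges overlapped. The coefficient was 0.36 (SE 0.09, p = 2.02e-04, limma) with weights and 0.27 (SE 0.12, p = 0.0306) without, and the exact permutation test gave p = 0.0510. It was 0.14 without WT-THC replicate 7 and 0.50 without WT-THC replicate 11, the only one of the settings tried in which this gene passed FDR 0.10.

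The clearest separation between treatments with a positive coefficient was that of 9930111J21Rik1, a protein-coding gene on chromosome 11 (GRCm38, 48946150 to 48979398, minus strand). It had 268, 357 and 1137 CPM at the lowest, median and highest of the THC libraries, against 71.6, 149 and 245 CPM in vehicle libraries. Every THC library was above every vehicle library, which held for 1 gene in this direction (0.00995% of those tested) and for 1 in the other (0.0199% in both). The coefficient was 1.40 (SE 0.36, limma), and it was 1.54 without weights. Leaving out 1 library at a time moved the coefficient between 1.21 and 1.64. Its count was a whole number in 16.7% of the libraries that had one, so reads were split with other genes and the level is uncertain. The gene 9930111J21Rik2 had a coefficient of -1.31 (SE 0.88). The span of 9930111J21Rik1 also holds Psme2b and Gm12185 on the same strand and Olfr56 on the other.

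Values of the other genes with a positive coefficient follow. Nfam1, an immune receptor with an ITAM motif that is known from B cells and myeloid cells, had 154, 375 and 902 CPM in THC libraries, against 60.0, 155 and 337 CPM in vehicle libraries, with a coefficient of 1.35 (SE 0.40). Psenen encodes PEN-2, a subunit of the gamma-secretase complex that cleaves membrane proteins such as Notch. Its level was 39.3, 219 and 587 CPM in THC libraries, against 10.0005, 39.4 and 151 CPM in vehicle libraries, and its coefficient was 1.94 (SE 0.62). All 8 THC libraries were above the vehicle median of Psenen, and 7 of 8 were above that of Nfam1. G6pc3, the glucose-6-phosphatase of most tissues whose loss causes neutropenia in humans, had 70.5, 164 and 235 CPM in THC libraries, against 2.40, 31.5 and 92.2 CPM in vehicle libraries. Its coefficient was 2.52 (SE 0.75), with an exact permutation p of 0.0051. Pon2, a paraoxonase-family lactonase with antioxidant activity, had 129, 352 and 706 CPM in THC libraries, against 8.54, 139.8 and 633 CPM in vehicle libraries, with a coefficient of 1.60 (SE 0.54). In both genes the vehicle libraries were widely spread, and the lowest of them lay far below their median.

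Nrbp1, Srsf2 and Ubap2l complete those described. Nrbp1, a pseudokinase that acts as an adaptor for ubiquitin ligases, had 90.2, 152 and 350.0 CPM in THC libraries, against 8.91, 46.0 and 128 CPM in vehicle libraries. All THC libraries were above the vehicle median, and 2 vehicle libraries reached into the THC range. The coefficient was 1.94 (SE 0.57). The exact permutation test gave p = 6.8e-05, the smallest that its 14700 arrangements can give, on the same libraries whose p chose the gene. Srsf2, a serine and arginine-rich splicing factor, had 304, 580.2 and 889 CPM in THC libraries, against 200.3, 334 and 521 CPM in vehicle libraries (coefficient 0.84, SE 0.27, exact permutation p = 0.00136). Ubap2l, an RNA-binding protein needed to assemble stress granules, had 298, 360.4 and 660 CPM in THC libraries, against 89.0, 188 and 670.3 CPM in vehicle libraries (coefficient 1.02, SE 0.34). Its single highest library was a vehicle one. Counting did not use the strand, and Srsf2 overlaps Mettl23 and Mfsd11, Psenen overlaps U2af1l4, Nrbp1 overlaps Gm9970 and Ubap2l overlaps 4933434E20Rik, all on the opposite strand. The strand could not be used to assign reads of such overlaps. The counts of Srsf2, Psenen, Nrbp1 and Ubap2l were whole numbers in 100% of libraries, so no splitting of reads was seen.

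**Figure D2:**
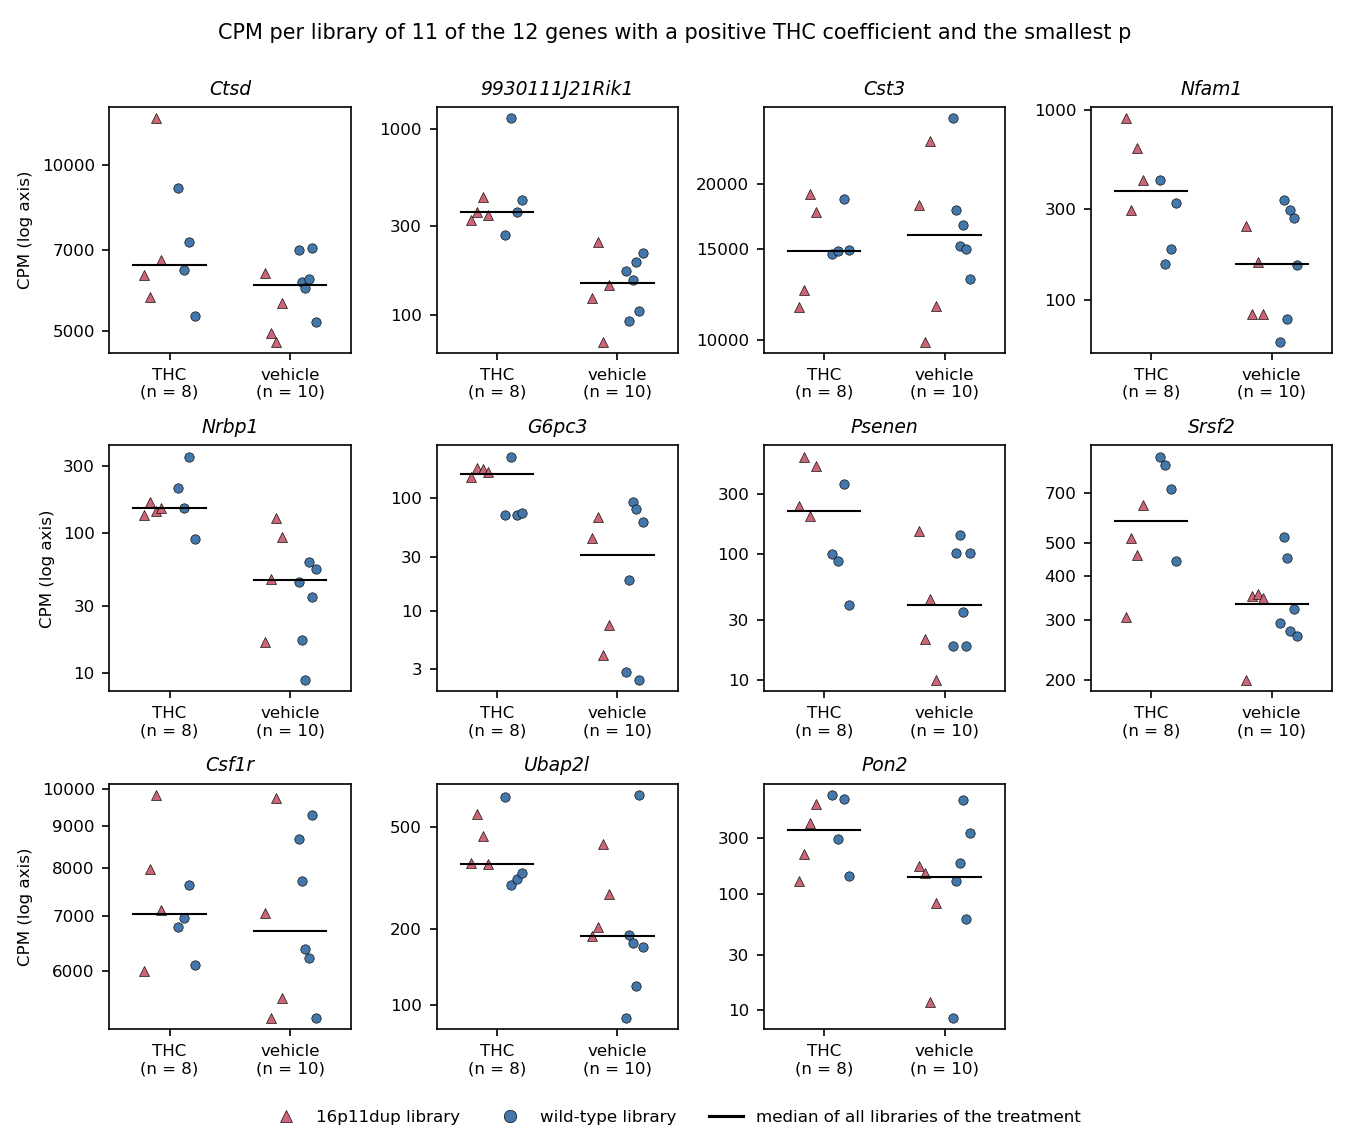
CPM per library (log axis) of 11 of the 12 genes with a positive THC coefficient and the smallest unadjusted p, for 8 THC libraries (left in each panel) and 10 vehicle libraries (right), with 16p11dup libraries as triangles, wild-type libraries as circles and the median of each treatment as a line. For 9930111J21Rik1 every THC library lies above every vehicle library, while Cst3 and Csf1r overlap across their ranges.

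For several genes with a negative coefficient the THC libraries included a few with very low levels. The gene with non-overlapping groups was BC005624, a coding gene on chromosome 2 (GRCm38, 30972177 to 30982201, minus strand) whose mean log2 CPM of 4.19 kept it out of the set of 12. It had 0.266, 7.26 and 16.3 CPM at the lowest, median and highest of the THC libraries, against 22.5, 40.2 and 188 CPM in vehicle libraries. The coefficient was -3.64 (SE 0.98, FDR = 0.831, limma), and no permutation p is given because the separation of the groups chose the gene. It was between -4.11 and -3.23 with each library left out in turn.

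Prrc2a, which encodes a reader of N6-methyladenosine in RNA, had 79.5, 197 and 511 CPM in THC libraries, against 180.0, 507 and 1033 CPM in vehicle libraries (coefficient -1.14, SE 0.34). Of the 8 THC libraries, 7 were below the vehicle median. Extl3, a glycosyltransferase of heparan sulfate synthesis, had 109, 234 and 649 CPM in THC libraries, against 236, 619 and 930.4 CPM in vehicle libraries (coefficient -1.07, SE 0.32). Nhsl2, on the X chromosome, had 2.92, 20.9 and 119 CPM in THC libraries, against 36.1, 108 and 176 CPM in vehicle libraries, with a coefficient of -2.04 (SE 0.65) and an exact permutation p of 2.72e-04. Its 16p11dup-THC libraries reached at most 25.5 CPM, below every vehicle library, and the spread among the WT-THC libraries was wide. The exact permutation tests gave p = 0.00619 for Prrc2a and p = 0.01 for Extl3.

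G6pdx, glucose-6-phosphate dehydrogenase of the pentose phosphate pathway, had 1.99, 35.1 and 468 CPM in THC libraries, against 42.9, 93.6 and 667 CPM in vehicle libraries. Its coefficient was -2.01 (SE 0.73), and -1.29 without WT-THC replicate 7. Slc35a4, a member of the nucleotide sugar transporter family, had 0.828, 49.2 and 116 CPM in THC libraries, against 6.20, 64.8 and 726 CPM in vehicle libraries, and its exact permutation p was 0.132. Its medians were close, and the coefficient was -2.12 (SE 0.74).

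Rab6b, a small GTPase of Golgi transport known mainly from neurons, had 7.63, 136 and 378 CPM in THC libraries, against 161, 266 and 911 CPM in vehicle libraries (coefficient -1.499, SE 0.50). Pbxip1, a partner of PBX transcription factors, had 40.1, 112 and 169 CPM in THC libraries, against 103, 209 and 1116 CPM in vehicle libraries (coefficient -1.27, SE 0.44), and all THC libraries were below the vehicle median. The same held for Iffo1, an intermediate filament family protein, and for Rps2, a protein of the small ribosomal subunit. Iffo1 had 40.0, 92.1 and 174 CPM in THC libraries, against 111, 204 and 728 CPM in vehicle libraries (coefficient -1.201, SE 0.43). Its span overlaps that of Gapdh on the opposite strand, and Gapdh itself had a coefficient of 0.29 (SE 0.24). Rps2 had 21.7, 75.9 and 191 CPM in THC libraries, against 80.7, 201 and 335 CPM in vehicle libraries, with a coefficient of -1.30 (SE 0.49) and an exact permutation p of 0.00551. Itpripl1 had 7.42, 128 and 454 CPM in THC libraries, against 85.3, 231 and 560.5 CPM in vehicle libraries (coefficient -1.44, SE 0.54, exact permutation p = 0.0550). In 23 of the 24 genes of the set the ranges of the treatments overlapped, 9930111J21Rik1 being the exception. Ctsd, Cst3, Csf1r and G6pdx were above an unadjusted p of 0.05 without WT-THC replicate 7, and Itpripl1 without WT-THC replicate 8.

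**Figure D3:**
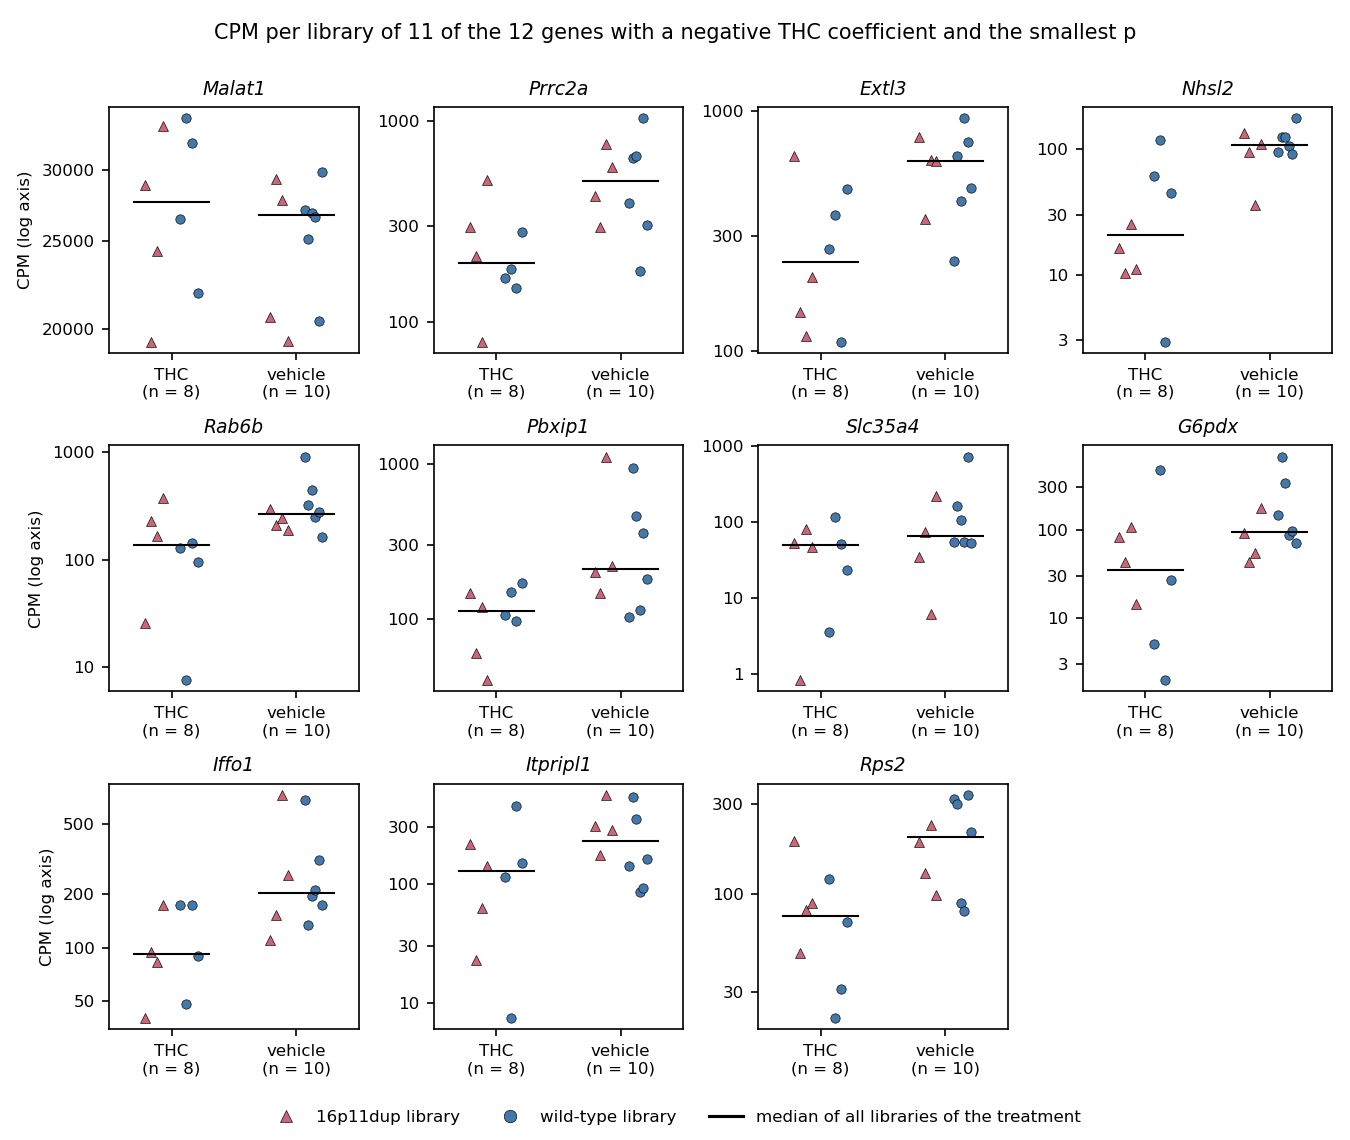
CPM per library (log axis) of 11 of the 12 genes with a negative THC coefficient and the smallest unadjusted p, drawn like the plot of the positive ones, with 8 THC libraries left and 10 vehicle libraries right in each panel. Every THC library lies below the vehicle median for Pbxip1, Iffo1 and Rps2, while Malat1 overlaps across its range.

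Many of the largest coefficients came from genes that some libraries did not detect. Among the 4535 genes with a count in 9 to 17 libraries, 71 had a positive and 119 a negative coefficient at an unadjusted p under 0.05. Over all 10055 genes tested, these counts were 172 and 233 (4.03% in either direction). With 8 THC and 10 vehicle libraries, a filter of 9 libraries treats the directions unequally. A gene with counts in THC libraries alone could not be tested, while one with counts in vehicle libraries alone could. The part of the filter in these counts was not tested. A coefficient of such a gene depends on the 0.5 counts added before the logarithm and is no bound on the fold change. Mrpl20, a protein of the large mitochondrial ribosomal subunit, had a count in 4 of 8 THC libraries and in all 10 vehicle libraries. Its level was 0, 0.0537 and 10.8 CPM at the lowest, median and highest of the THC libraries, against 1.11, 26.6 and 57.6 CPM in vehicle libraries (coefficient -5.26, SE 1.41, exact permutation p = 1.36e-04). None of the 4 16p11dup-THC libraries had a count of Mrpl20, and all 4 WT-THC libraries had one. Zfp787, a zinc finger protein, and Foxo4, a forkhead transcription factor downstream of insulin signalling, each had a count in 4 of 8 THC libraries and 9 of 10 vehicle libraries. Foxo4 reached at most 3.65 CPM in THC libraries and 55.3 CPM in vehicle libraries, and Zfp787 at most 1.62 CPM in THC libraries and 69.1 CPM in vehicle libraries. The coding gene 2700097O09Rik had a count in 3 THC libraries and 9 vehicle libraries.

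In the other direction, Daxx, a chaperone of the histone variant H3.3 that also takes part in death receptor signalling, had a count in all 8 THC libraries and in 8 of 10 vehicle libraries. Its level was 3.59, 53.1 and 149 CPM in THC libraries, against 0, 1.15 and 30.5 CPM in vehicle libraries (coefficient 4.84, SE 1.35, exact permutation p = 0.00259). All THC libraries were above the vehicle median, and 3 vehicle libraries were above 10 CPM. Fam102a had a count in 8 THC and 8 vehicle libraries and a coefficient of 4.24 (SE 1.40). Zgrf1, a DNA helicase, had a count in 7 of 8 THC libraries and 4 of 10 vehicle libraries, with medians of 20.8 CPM in THC libraries and 0 CPM in vehicle libraries. Nme1, a nucleoside diphosphate kinase, had a count in 8 of 8 THC libraries and 5 of 10 vehicle libraries, with medians of 25.8 CPM in THC libraries and 0.138 CPM in vehicle libraries, and 16p11dup-THC replicate 20 was at 0.0919 CPM. The annotated gene Gm20390 overlaps Nme1 on the same strand.

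Usp53 and Tub, which the study names for its RNA-seq, had a count in too few libraries to be tested. Usp53, which belongs to the ubiquitin-specific peptidases, had no count in any of the 10 vehicle libraries, where 3 counts, the limit that a count of 0 allows, correspond to 0.155 to 0.424 CPM. It had a count in 4 of 8 THC libraries, 3 of them WT-THC with 2.74, 17.1 and 20.2 CPM and 1 of them 16p11dup-THC replicate 20 with 0.0919 CPM. Tub, a regulator of receptor transport into cilia, had a count in 4 of 8 THC libraries, all WT-THC, and in 3 of 10 vehicle libraries. WT-THC replicate 7 reached 117 CPM and the highest vehicle library 3.56 CPM. The 4 16p11dup-THC libraries had no count of Tub.

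THC effects fitted separately in each genotype share no library, so the direction of a gene in one genotype can be read in libraries that did not choose it. Over all 10055 genes, the coefficients of 16p11dup and wild-type libraries had the same sign for 50.3% of genes, and Pearson's r across genes was -0.002 (genes are not independent of each other). Within 16p11dup libraries 528 genes (5.25%) had an unadjusted p under 0.05, 198 with a positive (1.97%) and 330 with a negative coefficient (3.28%), of which 50.2% had the same sign in wild-type libraries. Within wild-type libraries 321 genes (3.19%) did, 157 with a positive (1.56%) and 164 with a negative coefficient (1.63%), of which 51.4% had the same sign in 16p11dup libraries. There were 16 genes below 0.05 in both genotypes with the same sign and 7 with opposite signs. Genes chosen in one genotype thus shared their direction with the other about as often as all genes did. At FDR 0.10 no gene was called within 16p11dup libraries (0.0%), and the gene called within wild-type libraries was Malat1 again.

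For a closer look, 3 genes in each direction were taken as those with the smallest p in wild-type libraries that were also below 0.05 with the same sign in 16p11dup libraries. They included 9930111J21Rik1 and Ctsd with positive coefficients, and 2310033P09Rik, Prrc2a and Nhsl2 with negative ones. Prrc2a had a coefficient of -1.30 (SE 0.60) in 16p11dup libraries and -1.11 (SE 0.45) in wild-type libraries. For 9930111J21Rik1 the values were 1.34 (SE 0.65) and 1.502 (SE 0.50), and for Nhsl2 they were -2.73 (SE 1.29) and -1.92 (SE 0.82). That both genotypes gave the same sign for these genes follows from how they were chosen. The gene 2310033P09Rik had a count in 7 of 8 THC libraries and all vehicle libraries, at 0, 1.28 and 69.8 CPM in THC libraries and 5.02, 19.6 and 161 CPM in vehicle libraries.

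The difference of the THC effect between genotypes was tested with an interaction term. No gene passed FDR 0.10 in limma or edgeR, 398 (3.96%) had an unadjusted p under 0.05 in limma (160 positive, 1.59%, and 238 negative, 2.37%), and DESeq2 called 143 genes at FDR 0.10. Among the 24 genes of the set, Psenen had the smallest p for the difference. Its coefficient was 4.13 (SE 0.89) in 16p11dup libraries and 0.59 (SE 0.84) in wild-type libraries, and the difference had an unadjusted p of 0.0118 but an FDR of 0.997 (limma). The 4 16p11dup-THC libraries lay between 200.5 and 587 CPM, above all 4 16p11dup-Veh libraries, while 3 of 4 WT-THC libraries fell inside the range of the WT-Veh libraries. G6pc3 showed 3.52 (SE 1.15) in 16p11dup libraries and 1.67 (SE 1.08) in wild-type libraries, and Nrbp1 showed 1.23 (SE 0.91) and 2.41 (SE 0.85). The unadjusted p of the difference was 0.223 for G6pc3 and 0.357 for Nrbp1 (limma).

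**Figure D4:**
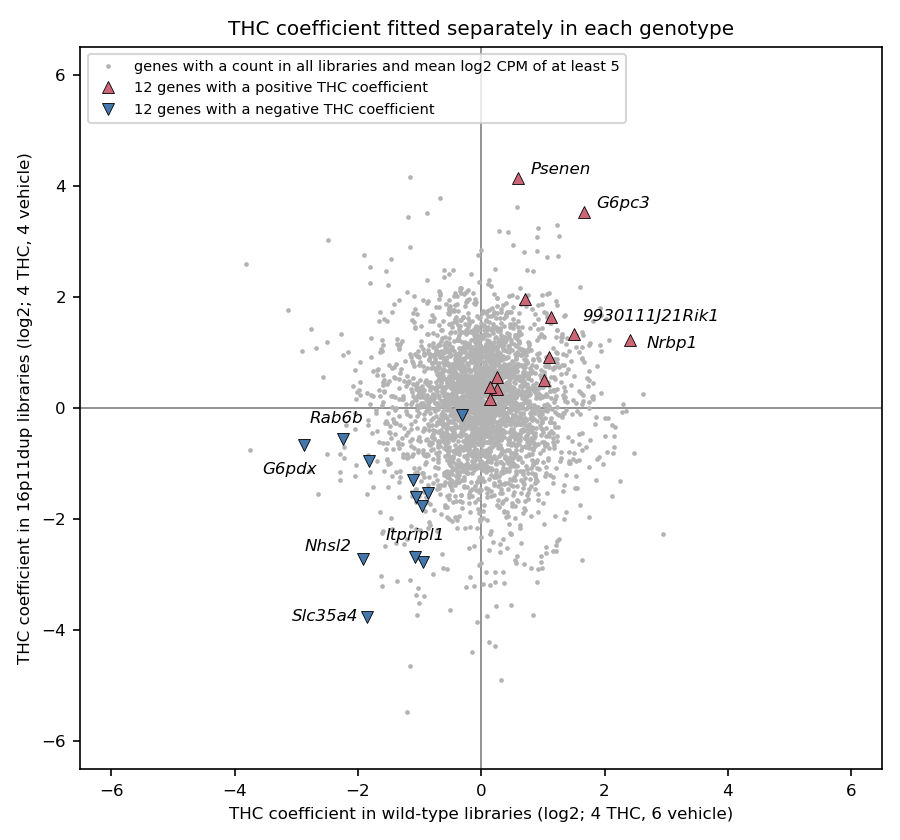
THC coefficient (log2) in 16p11dup libraries (vertical axis, 4 THC and 4 vehicle) against that in wild-type libraries (horizontal axis, 4 THC and 6 vehicle) for 3302 abundant genes (grey), with the 12 genes of positive (triangles up) and the 12 of negative coefficient (triangles down) that were chosen on all libraries together. Pearson's r over the grey points is 0.018, and all 24 marked genes keep the sign of the joint fit in both genotypes, which their choice on the same libraries favours.

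Gene lists were described by how many tested members had an unadjusted p under 0.05 and by their median coefficient, beside 4.03% and a median of 0.005 over all genes tested. Among 35 homeostatic microglia genes, all of which were tested, 5 (14.3%) had a positive and none a negative coefficient at that threshold. They included Cst3, Csf1r, Mef2c and Cx3cr1. The median of the list was 0.06 with weights and -0.06 without, and the count of 5 became 1 without weights and 0 in edgeR and DESeq2. It was 1 without WT-THC replicate 7, 8 without WT-THC replicate 11 and between 4 and 7 without any other single library. Mef2c, a transcription factor that restrains microglial activation, had 482, 909 and 1239.5 CPM in THC libraries, against 372, 560 and 1051 CPM in vehicle libraries (coefficient 0.52, SE 0.22, exact permutation p = 0.0221). Cx3cr1, the fractalkine receptor, had 121, 3179 and 3860.1 CPM in THC libraries, against 16.0, 2497 and 4093 CPM in vehicle libraries. WT-THC replicate 11 and the vehicle libraries WT-Veh replicates 1, 4 and 6 and 16p11dup-Veh replicate 14 held between 16.0 and 346 CPM of Cx3cr1, and its exact permutation p was 0.260. The sorting marker P2ry12 had a coefficient of 0.10 (SE 0.11), Tmem119 of 0.25 (SE 0.17), Itgam, which encodes CD11b, of 0.29 (SE 0.16) and Aif1, which encodes Iba1, of 0.19 (SE 0.35).

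Of 52 tested genes of the list of cathepsins and lysosomal proteins, 5 (9.62%) had a positive and none a negative coefficient at that threshold. Besides Ctsd they included Ctsa, a lysosomal carboxypeptidase, Lamp2, a membrane protein of lysosomes, and Atp6v0c, the proteolipid subunit of the proton pump. Ctsa had 491, 854 and 1935 CPM in THC libraries, against 517, 652 and 1036 CPM in vehicle libraries (coefficient 0.51, SE 0.22). Lamp2 had 650, 759 and 1479 CPM in THC libraries, against 407, 612 and 1110.4 CPM in vehicle libraries (coefficient 0.44, SE 0.21), and all THC libraries were above the vehicle median. Atp6v0c was low and never had a whole-number count, so its reads were split with other genes. The median over the list was 0.07 with weights, 0.006 without and -0.10 in edgeR, and 1 positive member was at the threshold without weights. With each library left out in turn, the positive count was between 1 and 6. It was 1 without WT-THC replicate 7, 2 without 16p11dup-THC replicate 18, 16p11dup-THC replicate 20 or 16p11dup-Veh replicate 13, and 3 without 16p11dup-THC replicate 17, WT-THC replicate 9, 16p11dup-Veh replicate 16 or WT-Veh replicate 6.

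Fcgr3, a low-affinity Fc receptor, had 460, 889 and 1421 CPM in THC libraries, against 416, 510.0 and 928 CPM in vehicle libraries (coefficient 0.53, SE 0.23, exact permutation p = 0.0196). Itgav, the integrin alpha V subunit used in uptake of apoptotic cells, had a coefficient of 0.80 (SE 0.38). They were the 2 of 31 tested genes of complement and phagocytosis at the threshold (6.45%), a count that was 0 without 16p11dup-THC replicate 17 or 18 and 4 without WT-THC replicate 11. Among 45 Toll-like receptor and NF-kappaB genes, Tlr7 (0.49, SE 0.20) and Nfkb2 (3.03, SE 1.498) had positive coefficients and Tirap (-2.49, SE 1.15) and Irak4 (-2.52, SE 1.197) negative ones. Tlr7, an endosomal sensor of single-stranded RNA, had 725, 1310.2 and 1939 CPM in THC libraries, against 437, 869 and 1719.7 CPM in vehicle libraries. Tirap is an adaptor and Irak4 a kinase of Toll-like receptor signalling. Tapbpl, a peptide editor of MHC class I, was the 1 of 28 presentation genes (3.12, SE 1.47). Of 34 tested interferon-stimulated genes, of 18 cytokines and chemokines and of 31 immediate early and dissociation stress genes, none was at the threshold, with medians of -0.29, 0.48 and 0.06.

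The p53 pathway was examined by the study in these libraries, so that a list of its genes is not independent of them. Its Reactome result concerned 16p11dup mice with THC against controls, not a THC main effect. Its upstream regulator analysis named Trp53 for genes of THC alone against wild-type mice. It did so too for genes of 16p11dup with THC against wild-type mice. The study also used qPCR of Trp53 in mPFC microglia and a p53 inhibitor in cultured microglia, which are not examined here. Trp53 itself had 54.7, 142 and 218 CPM in THC libraries, against 52.9, 80.1 and 424 CPM in vehicle libraries, with a coefficient of 0.47 (SE 0.48, exact permutation p = 0.399). Of 35 tested regulators and targets, none had a positive and 3 (8.57%) a negative coefficient at an unadjusted p under 0.05, and the median was 0.09. Mdm2, the ubiquitin ligase that degrades p53 and is also its target, had 9.23, 39.7 and 186 CPM in THC libraries, against 53.7, 159 and 455 CPM in vehicle libraries (coefficient -1.52, SE 0.58). Cdkn1a, the cell cycle inhibitor p21, had a count in 3 of 8 THC libraries and 8 of 10 vehicle libraries, and Zmat3, a target that regulates splicing, had a coefficient of -2.25 (SE 1.08). Without WT-Veh replicate 6 or 16p11dup-Veh replicate 14, 1 member of the list had a negative coefficient at the threshold, and none of these 3 genes was below it without WT-THC replicate 7. A list of caspases, the Bcl2 family and other genes had 44 tested members. Of these, Ripk1, a kinase of necroptosis and inflammatory signalling (-2.84, SE 1.11), and Dffb, the nuclease that cuts DNA in apoptosis (-3.81, SE 1.62), had negative coefficients. Bad, a proapoptotic Bcl2 family member, had a positive one (3.45, SE 1.68). Dffb had a count in 2 of 8 THC libraries and 7 of 10 vehicle libraries, just enough to be tested.

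In the list of heat shock and unfolded protein response genes, 3 of 52 (5.77%) had a positive and none a negative coefficient at the threshold, against 4.03% of all genes tested. These 3 act in the endoplasmic reticulum, while the members of the list were split between 27 positive and 25 negative coefficients. Hspa5, the chaperone BiP, had 510.4, 998 and 1476 CPM in THC libraries, against 278, 579 and 782 CPM in vehicle libraries (coefficient 0.60, SE 0.23, exact permutation p = 0.00707). Of the 8 THC libraries, 7 were above the vehicle median of Hspa5. Sdf2l1, a partner of BiP, had 10.98, 40.5 and 221 CPM in THC libraries, against 0.369, 7.39 and 88.9 CPM in vehicle libraries (coefficient 2.45, SE 1.07). Pdia4, a protein disulfide isomerase, had 53.2, 74.5 and 148 CPM in THC libraries, against 1.93, 30.4 and 134 CPM in vehicle libraries (coefficient 1.62, SE 0.79). All 8 THC libraries were above the vehicle median for both. The median of the whole list was 0.03 in limma and -0.17 in edgeR, and with each library left out in turn 1 to 4 members had a positive coefficient at the threshold.

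Mitochondrial lists had positive medians and few members at the threshold. Of 73 tested subunits of oxidative phosphorylation, 49 had a positive coefficient and 24 a negative one, with a median of 0.26, and 2 positive members, Ndufa7 (3.07, SE 1.32) and Cox6c (2.73, SE 1.31), were at the threshold. Ndufa7 belongs to complex I and Cox6c to cytochrome c oxidase. Of 77 mitochondrial ribosomal proteins, 47 were positive and 30 negative, with a median of 0.38, and Mrps27 and Mrpl2 (positive) and Mrpl20 and Mrpl4 (negative) were at the threshold. The medians were 0.04 and 0.06 in edgeR, and the mitochondrial ribosomal one was -0.59 within 16p11dup libraries and 0.51 within wild-type libraries. The oxidative phosphorylation median was 0.017 within 16p11dup libraries and 0.45 within wild-type libraries. Over all genes tested, 5053 coefficients were positive and 5002 negative. Cytosolic ribosomal proteins had a median of -0.02 over 84 tested genes, with Rps2 and Rpl3 negative at the threshold.

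The lists that remain had few members at the threshold, and with 1 library left out the counts in either direction were between 0 and 4 for every list other than the homeostatic and lysosomal ones. None of 21 tested genes of the cannabinoid receptors and endocannabinoid enzymes was at the threshold, with a median of -0.07. Cnr2 had a count in all 18 libraries, with 0.797, 10.8 and 218 CPM in THC libraries, against 0.413, 9.87 and 64.3 CPM in vehicle libraries (coefficient 0.22, SE 1.25). Cnr1 was not analysed here. Of 45 genes of Gi, cAMP and arrestin signalling, Rgs19, which shortens signalling of inhibitory G proteins, had a negative coefficient (-0.93, SE 0.45). Splicing factors of the SR and hnRNP families had Srsf2 and Hnrnpd (0.91, SE 0.41) positive and Srsf1 (-0.87, SE 0.40) negative among 32. Psmg1, a proteasome assembly chaperone, was the 1 of 48 proteasome genes (-3.96, SE 1.53), Mvk, mevalonate kinase, the 1 of 31 cholesterol genes (-3.24, SE 1.52), and Usp16, a histone H2A deubiquitinase, the 1 of 41 ubiquitin-specific peptidases (-1.52, SE 0.69). Psmg1 had a count in 3 of 8 THC and 8 of 10 vehicle libraries, and Mvk in 3 and 9. Among 30 cell cycle genes, Bub1b (4.25, SE 1.58) and Bub3 (2.39, SE 1.15) of the spindle checkpoint were positive at the threshold. The list had a median of -0.11, with 17 of 30 members negative. Bub1b had no count in most vehicle libraries and entered the test through its THC libraries, so its coefficient is no bound on the fold change. Of 23 tested disease-associated microglia genes, Ctsd alone was at the threshold. Of 18 tested genes of the 16p11.2 region, Gdpd3 was at it (-2.99, SE 1.43). Mag, a myelin protein, was the 1 of 4 tested oligodendrocyte lineage markers (3.79, SE 1.54), and the 11 markers of that lineage summed to 13.4 to 120 CPM in THC libraries and 6.61 to 194 CPM in vehicle libraries, with no count of Olig2 in any library. Of the 71 genes named in this text with an unadjusted p under 0.05, 26 were above it without WT-THC replicate 7, among them Mef2c, Cx3cr1, Ctsa, Lamp2, Tlr7, Hspa5 and Mdm2.

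**Figure D5:**
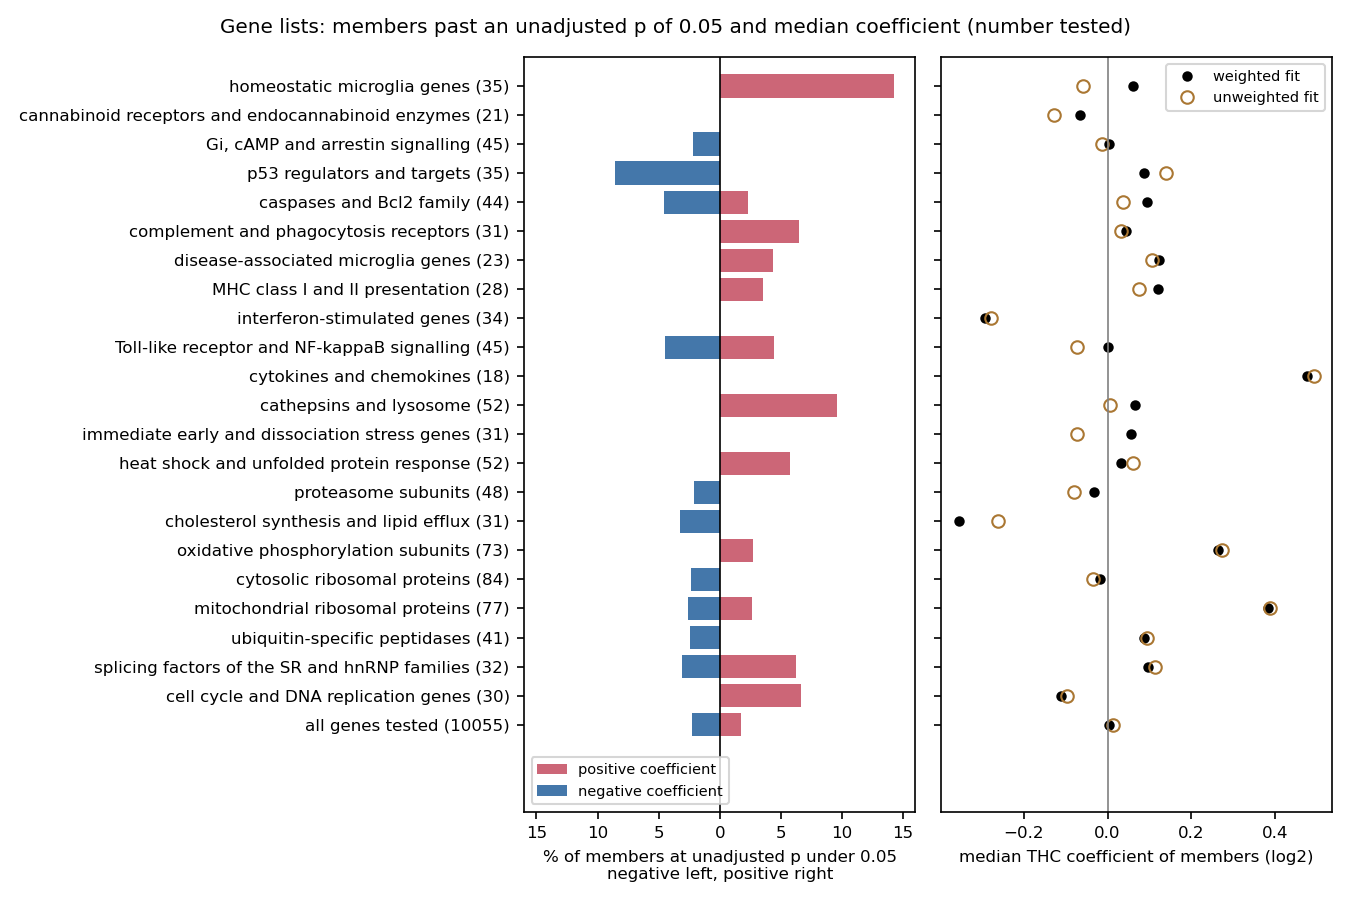
Left, percentage of tested members (number in parentheses) with an unadjusted p under 0.05 and a positive (right bars) or negative (left bars) THC coefficient for 22 gene lists and for all genes. Right, median coefficient of the members in the weighted fit (filled) and the unweighted fit (open), where the homeostatic list lies at 0.06 and -0.06.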

How the data were processed

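RNA of microglia sorted by FACS was sequenced in 18 libraries. The deposited table holds log2 CPM values that the authors made with voom from expected counts of RSEM 1.3.0, which ran STAR on GRCm38 without using the strand. The authors had left out 4 further libraries as outliers, which were not analysed here. The deposited sample sheet holds counts of reads (total, mapped, exonic, intronic) and the mapped reads as a fraction, both made by the authors. Its rDNA column, whose unit is not given in the sources used here, was not used, and its surrogate variables entered 1 alternative. The sources name 2 different library kits.

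Each log2 value was turned back into a count (minimum of a library taken as 0, offset 0.5), and 94.6% of the non-zero counts came out whole within 0.01. Library totals were 7045444 to 15459286 counts, with the authors' scaling factors from 0.735 to 1.305. A gene was tested where 9 or more libraries had a count of it, and 1 duplicated gene symbol was kept as separate entries. The fit used limma 3.58.1 in R 4.3.3 with voom weights, with THC, genotype and the percentage of mapped reads as terms and Benjamini-Hochberg adjustment over 10055 genes. Each genotype was also fitted alone, and the interaction tested. Single genes were tested by an exact two-sided permutation of mean log2 CPM within genotype over 14700 arrangements. Most of these genes were chosen by p on the same libraries, so these p-values are no independent support. Alternatives included 2 count models, edgeR 4.0.16 and DESeq2 1.42.0, for which the counts obtained above were rounded, other filters, weights, scalings and covariates, and leaving out each library. Scripts were tested on simulated data.

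The genes named were those at FDR under 0.10, the 12 of each direction with the smallest p among genes with a count in all 18 libraries and log2 CPM of 5 or more on average, and the 4 of each direction with the smallest p among the others. Further ones were genes named by the study, up to 5 members a list at an unadjusted p under 0.05, genes whose treatments did not overlap, and 3 of each direction at that threshold in both genotypes. Of these genes, 2 are not reported here. Other genes appear only as overlapping or related genes. The comparison, the gene lists and the rules were chosen with earlier results of these data known.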

Additional observations from a re-analysis of the deposited data

Results flagged for a closer look

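Within the 8 THC libraries or the 10 vehicle libraries, genotypes together, a library was marked by its gap to the nearest other library. The gap had to take an unusually large share of the group range, a rule that chance meets in about 1 group of 20. Of 176 groups examined, 11 were marked (6.25%). The number given is that share, and levels are log2 CPM.

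Among THC libraries, WT-THC replicate 8 stood above the others for 9930111J21Rik1 (0.672), at 10.15 against 8.07 to 8.75, and WT-THC replicate 11 stood below for Cx3cr1 (0.851), at 6.91 against 11.17 to 11.91, and for Mef2c (0.568), at 8.91 against 9.69 to 10.28. Replicate 20 of 16p11dup-THC was low for Nme1 (0.596), at -2.86 against 2.72 to 6.502. Replicate 18 of 16p11dup-THC was high for Dffb (0.647), at 1.62, and WT-THC replicate 7 for Mvk (0.557), at 1.84.

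Among vehicle libraries, WT-Veh replicate 6 was high for Bub1b (0.566), at 3.23, for Tub (0.473), at 1.84, and for its total count (0.498). WT-Veh replicate 2 was low for Zmat3 (0.524), at -0.32 against 4.42 to 8.71, and 16p11dup-Veh replicate 14 for Nhsl2 (0.586), at 5.18 against 6.51 to 7.46. Where the other libraries of a group lie near 0 counts, as for Dffb, Mvk, Bub1b and Tub, the mark rests on a single library with counts. The causes were not tested.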

How the results depend on the processing

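The count of genes at FDR 0.10, which was 1, became 0 with no filter on low values, with a count in all 18 libraries, with that and a mean log2 CPM of 5 or more, with 5 surrogate variables, without weights, with library totals in place of the scaling factors, with quantile normalization and in edgeR. It also became 0 with the voom trend held flat at high counts and without the 2 libraries with most genes counted, both chosen after seeing the data. It was 2 with weights computed with the design and 81 in DESeq2. For the genes at unadjusted p under 0.05 for the THC main effect, the count of 405 became 612 with no filter, 240 and 144 with both stricter filters, which test fewer genes, and 945 in DESeq2. For the difference between genotypes DESeq2 gave 143 genes at FDR 0.10 and 1070 at an unadjusted p under 0.05, against 0 and 398. Leaving out 1 library at a time gave 0 (without WT-Veh replicate 6) to 2 genes (without WT-THC replicate 9 or WT-Veh replicate 5) at FDR 0.10 for the main effect. The ranges were 0 to 1 within 16p11dup and for the difference and 0 to 6 within wild type, where 164 to 456 genes had an unadjusted p under 0.05. Malat1, at -0.31, became 0.26 with no filter, 0.0011 with a count in all libraries, 0.051 with the mean filter added, 0.11 without weights and with the flat trend, 0.12 in edgeR, 0.10 in DESeq2 and 0.035 without the 2 libraries. Cst3, at 0.21, became -0.013 with the mean filter, -0.10 without weights and with the flat trend, -0.14 in edgeR and -0.16 in DESeq2. Csf1r became -0.091 with quantile normalization. Of 71 named genes below an unadjusted p of 0.05, 39 in edgeR, 47 in DESeq2 and 59 without weights were still below it with the same sign. The causes were not tested. No paired analysis was possible because the labels give each library its own number, shared by no other group. Standard errors were larger for genes of low level, and the part of depth in this was not tested.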
